A study of Mus musculus with 15 samples.

Results

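The 8 genes described here, Mlxipl, Pklr, Gckr, Khk, Slc2a2, Tkfc, Pfkfb1 and Txnip, serve the use of glucose and fructose in the liver and its control by the transcription factor ChREBP. They were chosen by symbol, and all 8 were found, each on a single row, among the 24965 genes of the authors' deposited table of a genotype comparison. Male C57BL/6J mice with floxed alleles of Gata4 (Gata4fl/fl), a gene for a zinc finger transcription factor, were given an adeno-associated virus of serotype 8 (AAV8) at 8 weeks of age. The virus was AAV8-Tbg-Cre, with Cre under a promoter active in hepatocytes (Gata4LKO, called knockout), or an empty AAV8 (control), and frozen livers were taken 7 days later, at 9 weeks. The fasted groups held 4 control and 4 knockout livers and the refed groups 4 control and 3 knockout livers. Mice were fasted for 12 h, or fasted for 12 h and then refed for 12 h on a diet with 69% sucrose and 10% fat. All groups carried the floxed alleles, and the presence of Cre coincided with the genotype label. All sample titles of a group open with 1 number that no other group has. The labels do not say what it stands for, and whatever it marks cannot be told apart from the group. The table gives 1 estimate per gene and no value per liver, so values of single livers were not analysed here.

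The header of the table does not name its groups, and they were inferred from genes whose only read lay in 1 of 15 libraries, as given with the processing. The comparison was of 2 groups of 4 livers within a model of all 15, and 2 readings met the deposited values equally well. They were knockout minus control in fasted livers, and refed minus fasted in control livers. The former was taken because the table is named for genotype, and every direction below rests on it. Under the latter, the values below would be the response of control livers to sucrose refeeding. Both comparisons with their groups in reverse order met the values less closely, within 4.37e-05, and would turn every direction around. Genes that are known to follow feeding were mostly not called per the authors' deposited table: G6pc, which releases glucose, had a log2 fold change of -0.04 ± 0.39 and Pck1, of gluconeogenesis, of 0.01 ± 0.82 (SE). Of 12 such genes 1 was called, that is, had an adjusted p under 0.05: Srebf1, a regulator of lipid synthesis, at -0.72 ± 0.21 (SE) per the authors' deposited table. Of the 12, 10 had a standard error above that of 90% of tested genes of similar mean. The few calls therefore do not decide between the 2 readings.

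The targeted gene did not check the labels. Per the authors' deposited table Gata4 had a mean of 326.9 normalized counts and had a log2 estimate of 0.31 ± 0.15 (SE). It was not lower in livers labelled knockout (unadjusted p 0.0324, adjusted p 0.361, DESeq2 Wald test). The floxed exons are not named in the labels, and reads summed over all exons need not show the loss of some of them. Whether that accounts for the Gata4 value was not tested, and its direction rests on the reading of the groups taken above.

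Glucose enters hepatocytes through the transporter GLUT2 (Slc2a2) and is then phosphorylated, a step restrained by a nuclear regulatory protein (Gckr) until fructose 1-phosphate lifts the restraint. Fructose is phosphorylated by ketohexokinase (Khk) and split, and its glyceraldehyde is returned to glycolysis by triokinase (Tkfc). Pfkfb1, the liver enzyme that makes and breaks fructose 2,6-bisphosphate, sets the pace of glycolysis, and L-type pyruvate kinase (Pklr) is its last step. ChREBP (Mlxipl) senses sugar phosphates and, with its partner MLX, binds paired E-boxes called carbohydrate response elements near genes such as Pklr and Txnip, which encodes an inhibitor of glucose uptake.

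Because ChREBP acts through such paired boxes, the 250 bases upstream of each RefSeq start of the 8 genes were searched (GRCm38.p6, RefSeq promoter table; all 8 genes matched, with 13 starts). The motifs were the E-box CACGTG and pairs of boxes CACGNG or CNCGTG, in any order on either strand, with 5 bases between them. A pair can contain an E-box. These spellings were chosen after the windows had been seen. A pair was found upstream of the downstream start of Pklr and of the start of Txnip. Of all 32851 windows of that table, 24 held a pair (0.0731%). Because the spelling of the pair was chosen with the members' windows in view, nothing is read from that contrast. The E-box occurred upstream of Khk and of the upstream start of Mlxipl, and in 6.02% of all windows. The letters GATA, with A or T before and A or G after, on either strand, lay in 7 of the 13 windows, of 5 genes, against 26.5% of all windows. These are matches of letters and not measured binding. The windows with a pair or an E-box are shown 5′ to 3′ on the gene's strand, with those letters in capitals.
Pklr, downstream start, chr3:89136373-89136622, plus strand: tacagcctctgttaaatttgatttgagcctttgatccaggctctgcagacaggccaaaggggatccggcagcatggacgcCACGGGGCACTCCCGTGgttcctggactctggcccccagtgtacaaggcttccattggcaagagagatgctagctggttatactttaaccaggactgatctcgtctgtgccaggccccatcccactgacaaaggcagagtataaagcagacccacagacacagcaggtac
Txnip, chr3:96557707-96557956, plus strand: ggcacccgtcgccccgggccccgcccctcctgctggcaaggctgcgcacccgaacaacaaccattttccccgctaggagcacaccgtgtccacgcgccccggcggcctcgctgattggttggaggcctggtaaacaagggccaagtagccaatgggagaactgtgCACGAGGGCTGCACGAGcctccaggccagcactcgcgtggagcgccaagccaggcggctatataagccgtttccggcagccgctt
Khk, chr5:30921309-30921558, plus strand: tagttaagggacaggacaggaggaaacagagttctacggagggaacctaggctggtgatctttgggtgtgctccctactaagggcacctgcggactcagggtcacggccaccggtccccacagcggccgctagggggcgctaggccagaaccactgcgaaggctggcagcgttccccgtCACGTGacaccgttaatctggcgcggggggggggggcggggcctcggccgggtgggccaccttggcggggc
Mlxipl, upstream start, chr5:135089640-135089889, plus strand: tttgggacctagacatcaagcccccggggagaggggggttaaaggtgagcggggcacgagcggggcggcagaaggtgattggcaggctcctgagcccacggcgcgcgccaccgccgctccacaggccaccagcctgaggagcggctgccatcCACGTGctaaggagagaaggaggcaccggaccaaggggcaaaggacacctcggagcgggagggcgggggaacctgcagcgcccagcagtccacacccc

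**Figure D1:**
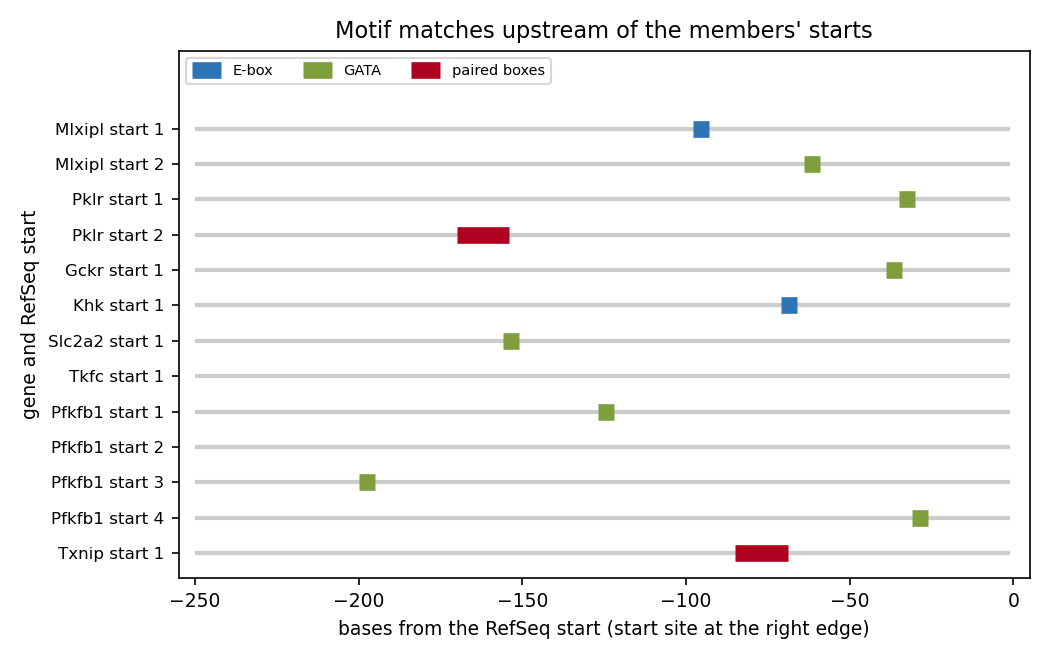
Motif matches in the 250 bases upstream of the 13 RefSeq starts of the 8 genes, with distance from the start on the x axis and 1 row per start, numbered by position along the gene. The pair upstream of Pklr start 2 lies 170 to 154 bases before it and that upstream of Txnip 85 to 69 bases before its start; the Tkfc window and Pfkfb1 start 2 hold none of the motifs searched.

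None of the 8 genes was called. With the authors' Wald test (DESeq2, Benjamini-Hochberg adjusted), 0 of 8 passed an adjusted p under 0.05, against 2.19% of 13335 tested genes (0.585% higher and 1.60% lower). At an unadjusted p under 0.05 there were 2 of 8, 1 on each side (Slc2a2 lower, Tkfc higher), against 11.4% of tested genes. The 8 log2 fold changes per the authors' deposited table ran from -0.28 for Pklr to 0.23 for Tkfc, 5 below and 3 above 0. Their median was -0.01, beside 0.01 over all tested genes. The median size of the change without its sign was 0.09 among them, beside 0.11 over all tested genes. Their median standard error was also smaller, 0.11 beside 0.14, so the lower size is not read as a smaller true change. Livers are bulk samples, in which fewer cells of a type and less RNA per cell cannot be told apart.

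**Figure D2:**
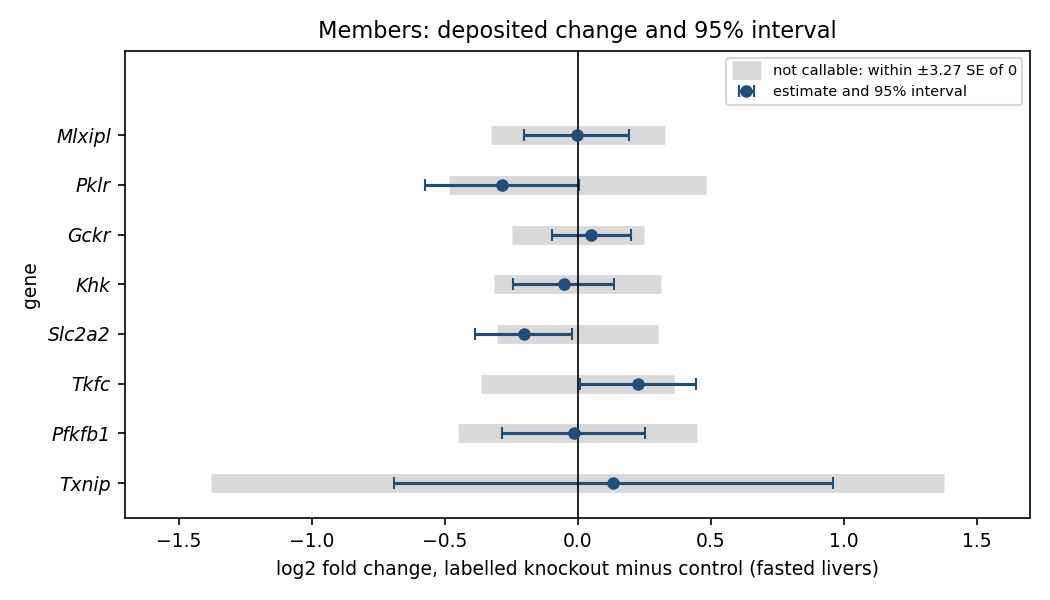
Log2 fold change (labelled knockout minus control, x axis) of each of the 8 genes as deposited, with points for the estimates and bars for 95% intervals; the grey band spans 3.27 standard errors on either side of 0, within which no gene is called. All 8 points lie inside their bands, and the interval of Txnip, from -0.69 to 0.96, is the widest of the 8.

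The regulator itself was tightly bounded at the level of the whole gene. Mlxipl has 2 RefSeq starts, and the gene count does not separate their transcripts. Mlxipl (ENSMUSG00000005373, chromosome 5, 135089890 to 135138382 in mm10, the build of all gene positions here) averaged 6748 normalized counts, which are counts scaled by each library's size factor and then averaged by the authors over the 15 libraries. Its log2 fold change per the authors' deposited table was -0.004 ± 0.10 (SE), and the adjusted p was 0.996 (DESeq2 Wald test). The 95% interval ran from a level 13.0% lower to 14.3% higher in livers labelled knockout. Its partner Mlx, at 0.16 ± 0.12, and its paralog Mlxip (MondoA), at -0.13 ± 0.15 (SE), were not called per the authors' deposited table either. Neither were the genes for the enzymes that add and remove O-linked N-acetylglucosamine, a sugar mark carried by ChREBP: Ogt stood at 0.09 ± 0.08 and Oga at 0.003 ± 0.095 (SE) per the authors' deposited table. Per kilobase of annotated exon, the mean level of Mlxipl was 60.8 times that of Mlxip and 4.93 times that of Mlx. These levels mix fasted and refed livers, and count the exons of every annotated transcript.

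Txnip was the least certain of the 8. Thioredoxin-interacting protein responds to glucose through ChREBP and MondoA. Its gene (ENSMUSG00000038393, chromosome 3, 96557957 to 96561883) had a mean of 1675.5 normalized counts and had a log2 estimate of 0.13 ± 0.42 (SE) per the authors' deposited table (adjusted p 0.959, DESeq2 Wald test). The interval reached from 38.0% lower to 94.3% higher. An estimate of 1.37 on the log2 scale would have been needed for a call at this error. With tested genes split into 10 classes by mean, 99.1% of the class of Txnip had a smaller standard error. The antisense gene Gm15441 shares 606 exon bases with Txnip, 19.4% of its exon length. Gm15441 had a mean of 233.1 normalized counts and had a log2 estimate of -0.04 ± 0.94 (SE) per the authors' deposited table. The strand setting of the counting is not given in the sources used here, so reads of this pair may not be told apart. Arrdc4, the arrestin-family relative of Txnip that MondoA also controls, was at 0.11 ± 0.22 (SE) per the authors' deposited table, without a call.

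At the entry of glucose, Slc2a2 (ENSMUSG00000027690, chromosome 3, 28697903 to 28731359) had the smallest p of the 8. With a mean of 6011.5 normalized counts, its log2 fold change was -0.20 ± 0.09 (SE) per the authors' deposited table. The unadjusted p was 0.0289 and the adjusted p 0.338 by the DESeq2 Wald test, so the difference did not pass. Its 95% interval spanned levels from 23.5% to 1.4% lower in livers labelled knockout. Slc2a1, the widely expressed glucose transporter GLUT1, stood at -0.21 ± 0.13 (SE) per the authors' deposited table, without a call. Per kilobase of exon the mean level of Slc2a2 was 17.7 times that of Slc2a1. The fructose transporter Slc2a5, at -0.56 ± 0.25 (SE) per the authors' deposited table, had an unadjusted p of 0.0268 and an adjusted p of 0.329 (DESeq2 Wald test).

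Gckr (ENSMUSG00000059434, chromosome 5, 31297443 to 31327314) was measured with the smallest error of the 8. Its mean was 4784 normalized counts and its log2 fold change 0.05 ± 0.08 (SE) per the authors' deposited table (adjusted p 0.897, DESeq2 Wald test). The 95% interval spanned 6.5% lower to 15% higher. The hexokinase gene Hk2, with a mean of 13.95 normalized counts, had a log2 fold change of -1.38 ± 0.45 (SE) per the authors' deposited table, without passing (adjusted p 0.0727, DESeq2 Wald test). Hk1 stood at 0.23 ± 0.26 (SE) per the authors' deposited table, without a call.

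In glycolysis, Pklr (ENSMUSG00000041237, chromosome 3, 89136142 to 89146784) had the lowest estimate of the 8. With a mean of 13856 normalized counts, its log2 fold change was -0.28 ± 0.15 (SE) per the authors' deposited table, with an unadjusted p of 0.056 and an adjusted p of 0.458 (DESeq2 Wald test). The interval allowed levels from 32.9% lower to 0.5% higher. The gene has 2 RefSeq starts, and the pair of boxes shown above lies before the downstream one, that of the liver form. The gene count does not separate the transcripts from the 2 starts. Pkm, the pyruvate kinase gene of most other tissues, was at 0.07 ± 0.18 (SE) per the authors' deposited table, and the mean level of Pklr per kilobase of exon was 227 times as high. The oppositely oriented gene Hcn3 shares 711 exon bases with Pklr but had a mean of only 32.06 normalized counts.

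Pfkfb1 (ENSMUSG00000025271, chromosome X, 150588229 to 150643878) was the least abundant of the 8, with a mean of 994.9 normalized counts. Its log2 fold change was -0.01 ± 0.14 (SE) per the authors' deposited table (adjusted p 0.989, DESeq2 Wald test), with an interval from 17.7% lower to 19.3% higher. Its paralogs Pfkfb2, Pfkfb3 and Pfkfb4 had log2 fold changes of -0.09 ± 0.17, -0.29 ± 0.25 and 0.61 ± 0.51 (SE) per the authors' deposited table, without a call. Per kilobase of exon the mean level of Pfkfb1 was 6.04 times that of Pfkfb2 and 9.12 times that of Pfkfb3.

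The genes of fructose breakdown had estimates on both sides of 0. Khk (ENSMUSG00000029162, chromosome 5, 30921431 to 30931248) had a mean of 7529.1 normalized counts and had a log2 estimate of -0.05 ± 0.10 (SE) per the authors' deposited table (adjusted p 0.919, DESeq2 Wald test). Its interval spanned 15.4% lower to 9.8% higher. Khk is spliced into a liver form and a widely expressed form, which the gene count does not separate. Tkfc (ENSMUSG00000034371, chromosome 19, 10587791 to 10605654) was the most abundant of the 8 by normalized count, with a mean of 17886.9. Its log2 fold change was 0.23 ± 0.11 (SE) per the authors' deposited table, with an unadjusted p of 0.0407 and an adjusted p of 0.405 (DESeq2 Wald test). The interval of Tkfc spanned 0.7% to 36.0% higher.

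Per kilobase of exon the mean levels of Khk and Tkfc were close to each other, with a ratio of Tkfc to Khk of 0.925. Tkfc shares 596 exon bases with Cyb561a3 and 328 with Ddb1, both on the opposite strand. Ddb1, with a mean of 4315.7 normalized counts, had a log2 fold change of -0.05 ± 0.05 (SE) per the authors' deposited table.

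The intervals show what sizes of change the table leaves room for. They are not adjusted for reading 8 genes. For 3 of the 8 genes (Mlxipl, Gckr and Khk) the 95% interval lay within 0.25 of 0 on the log2 scale. It lay within 0.5 for 6 of the 8, all but Pklr and Txnip, and within 1 for all 8. A call needed an unadjusted p of at most 0.00108, or an estimate 3.27 standard errors from 0. Such a log2 change would have been 0.25 for Gckr, 0.30 for Slc2a2, 0.31 for Khk, 0.33 for Mlxipl, 0.36 for Tkfc, 0.45 for Pfkfb1 and 0.49 for Pklr. Estimates smaller than these could not be called, which sets no fixed limit on the true change. Among the 10 classes of tested genes by mean, 6 of the 8 genes were in the highest class, with standard errors from 0.08 to 0.15 beside a class median of 0.09. Pfkfb1, at 0.14, and Txnip, at 0.42, were in the class below, with a median of 0.08.

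**Figure D3:**
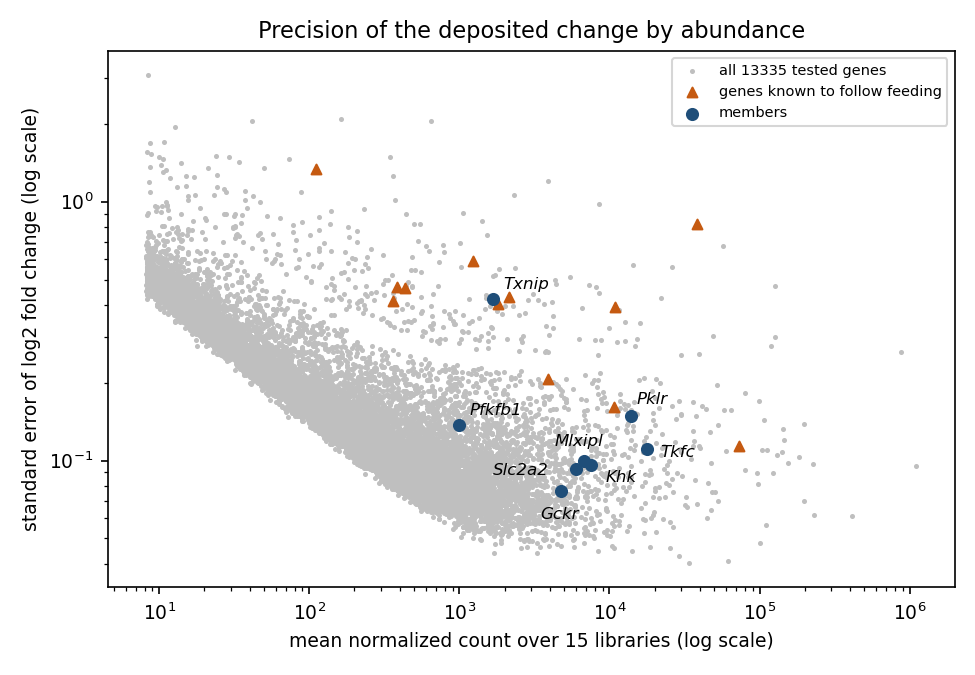
Standard error of the log2 fold change (log scale) against the mean normalized count over 15 libraries (log scale) for all 13335 tested genes in grey, the 8 members as blue circles and 12 genes known to follow feeding as orange triangles. Txnip, at 0.42, lies above the main body of genes of its abundance, while Gckr lies at 0.08.

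Other genes of carbohydrate use were read from 6 lists, which together held 99 genes besides the 8, of which 93 were tested. The authors' DESeq2 Wald test called 8 of the 93 (8.60%, beside 2.19% of all tested genes), 1 higher and 7 lower. Of these 8, 5 came from the list of ChREBP and MondoA targets, of which several were known to be lower in these data when it was written, so nothing is read from that share. The 5 other lists held 3 called of 73 tested (4.11%), 1 higher and 2 lower. Their median log2 fold change was 0.01, equal to that of all tested genes. Of 21 other glycolysis genes 1 fell: Aldoc, the aldolase C gene, by 1.02 ± 0.16 (SE) on the log2 scale per the authors' deposited table (adjusted p 1.06e-07, DESeq2 Wald test). Pfkm, at 0.23 ± 0.11 (SE) per the authors' deposited table, had an unadjusted p of 0.048 and did not pass.

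Of 15 other genes of fructose, polyol and pentose phosphate metabolism, 1 fell and 1 rose. Akr1b3, the aldose reductase that reduces glucose to sorbitol, changed by -1.10 ± 0.26 (SE) per the authors' deposited table, at a mean of only 36.49 normalized counts (adjusted p 0.00323, DESeq2 Wald test). Sord, which oxidizes sorbitol to fructose, stood at -0.01 ± 0.11 (SE) per the authors' deposited table, without a call. H6pd, the hexose 6-phosphate dehydrogenase of the endoplasmic reticulum, rose by 0.31 ± 0.09 (SE) on the log2 scale per the authors' deposited table (adjusted p 0.0316, DESeq2 Wald test). When p-values of all 24940 genes entered the adjustment, it no longer passed.

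Of 9 other genes of glucose entry and phosphorylation, 8 of ChREBP's relatives and regulators, and 22 of glycogen metabolism, 0 passed the authors' Wald test (DESeq2). At an unadjusted p under 0.05 there were 2, 0 and 3. The glycogen genes of these were Gyg (glycogenin), at -0.34 ± 0.15, Gsk3b, at 0.26 ± 0.12, and the branching enzyme gene Gbe1, at 0.26 ± 0.08 (SE) per the authors' deposited table. Gbe1 had an adjusted p of 0.0585 (DESeq2 Wald test) and passed when the adjustment was limited to genes with a mean of at least 100.

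Of 23 other genes described as targets of ChREBP or MondoA, 5 fell and 0 rose. The list holds genes of unlike roles, and its count is not independent evidence. Per the authors' deposited table the falls were of Rgs16, a regulator of G protein signalling, by 1.92 ± 0.52, and of the clock-linked repressor gene Bhlhe40 by 0.99 ± 0.15 (SE) on the log2 scale. They were also of Klf10, a zinc finger repressor, by 0.90 ± 0.17, and of the lipogenic genes Thrsp by 0.80 ± 0.17 and Fasn by 0.77 ± 0.18 (SE) on the log2 scale per the authors' deposited table. The adjusted p ran from 8.98e-09 for Bhlhe40 to 0.0151 for Rgs16 (DESeq2 Wald test). The 5 targets among the 8 members (Txnip, Pklr, Khk, Tkfc and Slc2a2) were not called, nor were Acly, at -0.18 ± 0.11, Acaca, at -0.09 ± 0.13, and Gpd1, at 0.18 ± 0.11 (SE) per the authors' deposited table. Fgf21, a liver hormone, stood at 1.10 ± 0.34 (SE) per the authors' deposited table and missed the threshold at an adjusted p of 0.0505 (DESeq2 Wald test). It passed, as a rise, when the adjustment was limited to genes with a mean of at least 10 (0.0493) or to protein coding genes (0.0494). Mttp, which loads lipid onto apolipoprotein B, was at -0.23 ± 0.11 (SE) per the authors' deposited table, with an unadjusted p of 0.0375, and did not pass. The list's median was 0.04, beside 0.01 over all tested genes.

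**Figure D4:**
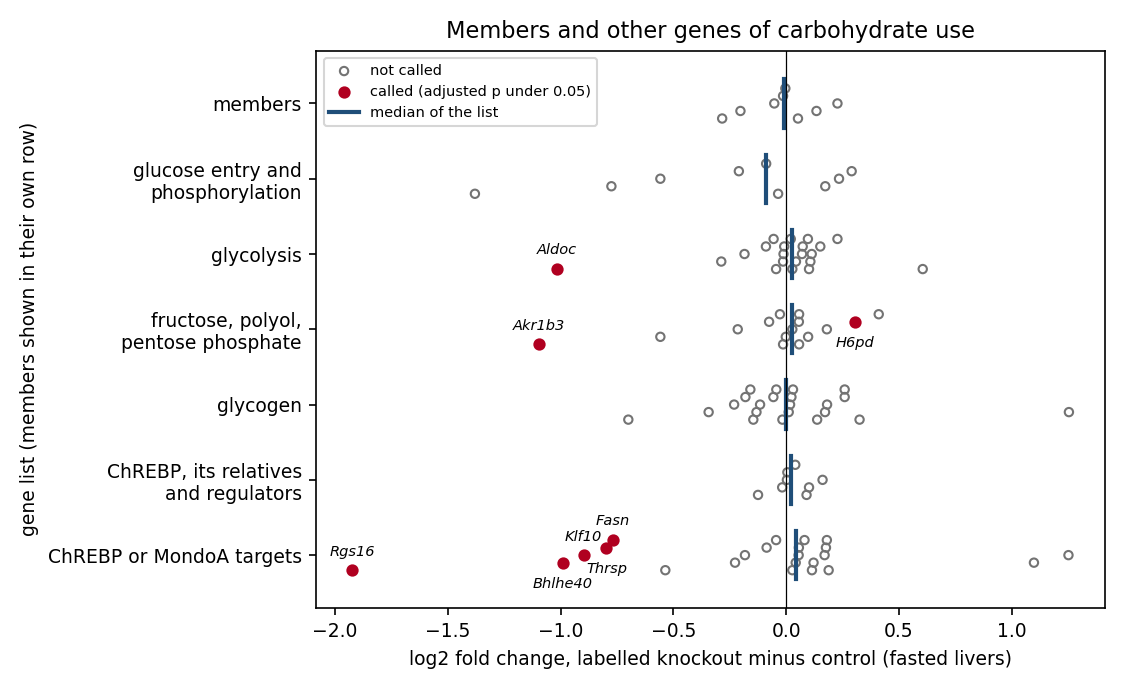
Log2 fold change (labelled knockout minus control, x axis) of tested genes by list, with the 8 members in their own row and left out of the others; filled red points are genes called at an adjusted p under 0.05, open points the rest, and blue bars the median of each row. The 8 called genes outside the members are named, and the members lie between -0.28 and 0.23.

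Relative size factors of the 15 libraries, read from single-read genes, lay between 0.912 and 1.11, and the means of all genes summed to 1.80e+07. The tissue showed its hepatocyte markers, with Alb at a mean of 1107247 normalized counts. Of 8 hepatocyte markers the authors' DESeq2 Wald test called 0, with 2 at an unadjusted p under 0.05, and log2 fold changes ran from -0.08 to 0.22. All 8 macrophage markers had estimates below 0, from -0.50 to -0.12, with 0 called by that test and 1 at an unadjusted p under 0.05. Endothelial markers ran from -0.71 to 0.25 and stellate cell markers from -0.18 to 0.45, each list with 8 tested and 0 called by that test (2 and 0 at an unadjusted p under 0.05). Of 4 tested cholangiocyte markers (-0.38 to 0.66) and 2 lymphocyte markers (-1.10 to -0.12), 0 were called by that test, with 0 and 1 at an unadjusted p under 0.05. The part of such cells in the values of the 8 genes was not tested.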

How the data were processed

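Liver RNA of 15 mice was sequenced after TRIzol and column extraction with a stranded kit, per the labels' protocols. FastQC, STAR 2.6.0c, DESeq2 and mm10 are named per the submitters' processing notes. The sources used here do not give the counter, its strand setting or the annotation. The only values were a table deposited by the authors. Per the file headers it holds a mean signal of normalized counts, a log2 fold change, the standard error of that change, the Wald score and p-values. The score, p and Benjamini-Hochberg adjustment over 13335 genes were recomputed and met the deposited values within 1e-06. The 11605 genes with a p but no adjusted p stayed untested, and the lowest mean tested was 8.20.

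To find the groups compared, a negative binomial model was fitted to single reads in each of 15 libraries under 168 readings. Of these, 2 met the deposited values within 1e-06, and the next differed by 4.37e-05. The next were the same 2 comparisons with the groups in reverse order, so directions rest on this small difference in fit.

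A gene was called at an adjusted p under 0.05. The planned fits of single livers could not be made. Intervals are 95% normal intervals from the deposited errors. The labels do not name a cage, litter or day, so p-values measure the spread between these livers only. Members, lists and tests were chosen with earlier results of these data known. The text names the 8 members, Gata4, every gene of the carbohydrate and feeding lists called or at an unadjusted p under 0.05, and partner isoforms of the members; Ppp1r3b, Sord, Acly, Acaca, Gpd1, Ogt and Oga, the feeding genes, Alb and genes overlapping a member were added after their values were seen. Where a symbol repeated, the row of highest mean was kept. Levels per kilobase use the merged exons of GENCODE M21. The code for calling and intervals was run on values simulated with the deposited errors, which does not test those errors. Python 3.11.15, numpy 2.4.6, pandas 2.3.3, scipy 1.17.1 and matplotlib 3.10.9 were used. Alternatives changed the genes adjusted over, the centre, the threshold and the adjustment. Some genes of these lists are counted but not reported here by name.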

Additional observations from a re-analysis of the deposited data

How the results depend on the processing

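All 8 members stayed uncalled under each of the 7 alternatives, and the lowest adjusted p was 0.299, of Slc2a2 (DESeq2 Wald test). The alternatives reused the deposited errors and, but for the recentring, the deposited p-values. The smallest unadjusted p of the 8 was 0.0289 (DESeq2 Wald test). A call was therefore hardly possible under any of them, and its absence is no separate support. Only subtracting the median of tested genes altered the estimates, by 0.007 on the log2 scale, and no member changed sign. The other alternatives kept the deposited estimates, so signs could not change there. Among the other carbohydrate genes 6 to 11 were called, beside 8. Of the 8, 7 remained when p-values of all 24940 genes entered the adjustment (without H6pd) and 6 with Benjamini-Yekutieli (without H6pd and Rgs16). With the adjustment limited to genes with a mean of at least 100, 7 remained, since Akr1b3 lies below that mean, and Gbe1 was added. Over all genes, 292 calls became 127 with Benjamini-Yekutieli and 434 at an adjusted p under 0.10. The error of each estimate limits the size of change that could be seen. No paired analysis was possible because no liver has values of its own in the table. Leaving out single livers was not run, for want of such values.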

Other observations

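Txnip shared its wide error with genes that are known to follow feeding. Of those 12 genes, 10 had a standard error above that of 90% of tested genes of similar mean. Per the authors' deposited table the standard errors of the log2 fold change were 0.82 for Pck1, 0.59 for Igfbp1, 0.40 for Angptl8 and 0.39 for G6pc. Of the 8 members 1 stood there, Txnip, as did 13 of 23 other genes described as ChREBP or MondoA targets. These lists share genes, such as G6pc and Angptl8. Wide errors were not limited to them: 4 of 8 stellate cell markers and 5 of 22 glycogen genes stood there, beside 1 of 8 hepatocyte markers. A link of the wide errors to feeding was not tested. Ppp1r3b, which targets a phosphatase to glycogen, had the lowest estimate among glycogen genes, at -0.70 ± 0.48 (SE) per the authors' deposited table, without a call. The model took in all 4 groups, and the table does not give the spread of each.

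Khk and Gckr, whose products are linked through fructose 1-phosphate, lie 366 kb apart on chromosome 5. Per the authors' deposited table their changes on the log2 scale were -0.05 ± 0.10 and 0.05 ± 0.08 (SE).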
